A study of Mus musculus with 6 samples.

Results

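Loss of Ezh2 in CD4 T helper cells grown under Th1 conditions was examined on a single pair of arrays, 1 from an Ezh2 knockout (Ezh2 KO) Th1 culture and 1 from a wild type Th1 culture, chosen by their sample titles. They are 2 of the 6 Affymetrix 3' expression arrays of the study, which crossed both genotypes with 3 culture conditions, 1 array in each group. Naive CD4 T cells were isolated from the spleens of C57BL/6 mice and grown for 5 days, first for 2 days on plates coated with 10 µg/ml of an antibody that triggers the T cell receptor, with 15 ng/ml IL-2 and a CD28 antibody (1 µg/ml) in the medium. For the remaining 3 days the cytokines were kept and the stimulating antibodies left out. Th1 cultures of both genotypes received 1 ng/ml IL-12 and an antibody that neutralizes IL-4. Th2 cultures received 10 ng/ml IL-4 and an antibody that neutralizes interferon gamma, and unpolarized cultures received both neutralizing antibodies and no polarizing cytokine. Th1 was therefore the condition in which interferon gamma was left unblocked, and the effect of IL-12 and that of unblocked interferon gamma cannot be told apart in this design. The labels do not describe the Ezh2 allele, the Cre driver or the number of mice behind an array.

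Ezh2 is a histone methyltransferase and the active enzyme of Polycomb repressive complex 2 (PRC2) in dividing cells. The complex methylates lysine 27 of histone H3 and so keeps developmental and lineage genes silent. In Th1 differentiation, T cell receptor and IL-12 signals acting through STAT4, together with interferon gamma, switch on T-bet (Tbx21), which drives Ifng, Cxcr3 and other effector genes. Ezh2-bound chromatin in T cells is known to cover genes of alternative fates, including cytokine genes and the Cdkn2a locus. The comparison asks which genes were read differently when cells without Ezh2 were placed in Th1 medium, and whether those differences were also present in the other cultures.

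With 1 array per genotype there was no replicate and no test within the Th1 pair, so differences are given as Ezh2 KO minus wild type on the log2 scale after intensities below 11.33 were raised to that floor. A gene was counted as measured when either Th1 array reached an intensity of 64.43, the median of all values, and 10849 of 18193 genes with a named probe set did so. Below that reading an intensity is poorly separated from background, and a fold resting on it is uncertain in size. Arrays had medians from 61.3 to 69.1 at one common trimmed mean of 500.003. Ezh2 itself, read by 1 probe set, was 6553 on the wild type and 4876 on the Ezh2 KO Th1 array (log2 difference -0.43), beside -0.49 in the unpolarized and -0.63 in the Th2 pair. The sources used here do not place the probe set relative to the deleted part of the gene, so the lower reading follows the label but does not measure how complete the deletion was. Of the CD4 T cell markers, 8 of 8 were measured and 0 differed by 2-fold by the probe set used, with 4 above 0 and 4 below. Cd4 itself was lower, at 477 against 300 (-0.67), and its second probe set gave -1.05, past 2-fold. In wild type cells, Tbx21 read 530 in Th1 medium against 90.0 and 80.8 in unpolarized and Th2 medium, and Cxcr3 read 1313 against 219 and 227, as the Th1 label implies. Ifng was under 64.43 on the 3 wild type arrays.

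Ezh2 KO Th1 cells read 736 of 10849 genes 2-fold or more higher than wild type Th1 cells (6.78%) and 429 2-fold or more lower (3.95%). The remaining 89.3% lay within 2-fold, around a median difference of -0.07. The excess of higher readings grew with the size of the difference. At 4-fold or more, 249 genes were higher and 83 lower, at 10-fold 63 and 7, and at 30-fold 14 and 0. Of the 736 higher genes, 342 had a wild type reading under 64.43, including 52 at or below the floor, so that they went from near background to a measured signal. Of the 429 lower genes, 207 read under that limit in the Ezh2 KO, 22 of them at the floor. Both readings were above the limit for 394 higher and 222 lower genes. In RNA from whole cultures, a different fraction of a cell type and a different level within its cells cannot be told apart.

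**Figure D1:**
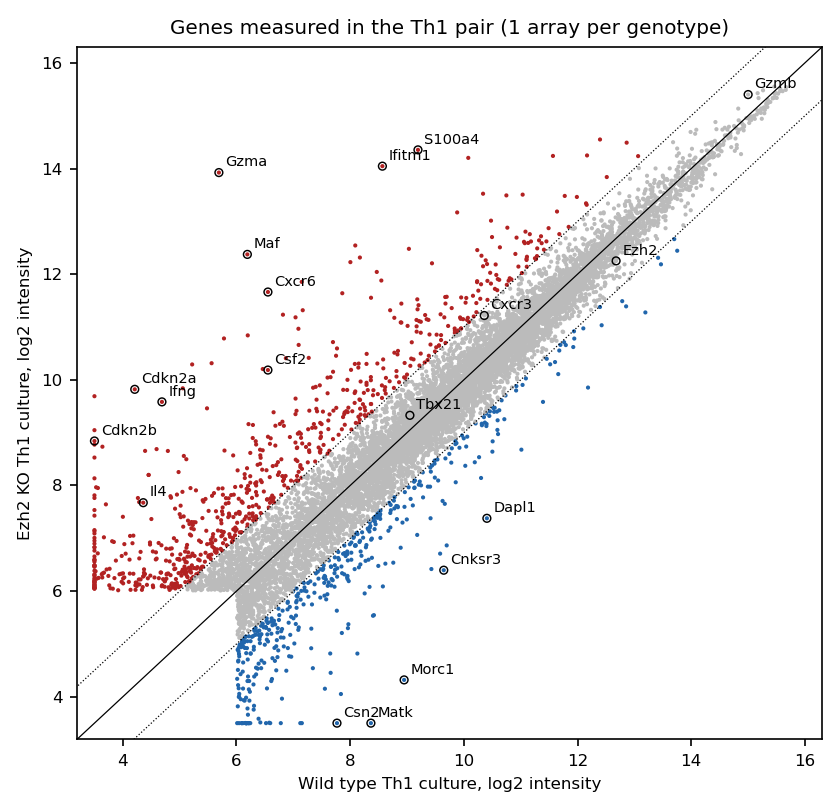
Each point is 1 of the 10849 genes measured in the Th1 pair, with its log2 intensity on the wild type array on the horizontal axis and on the Ezh2 KO array on the vertical axis (solid line, equality; dotted lines, 2-fold). The 736 red genes are 2-fold or more higher and the 429 blue genes 2-fold or more lower in the Ezh2 KO, and the widest departures from the line are on the higher side (Gzma, Maf, Cdkn2a).

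The gene with the widest difference was Gzma, which encodes granzyme A, a protease of cytotoxic granules. It read 51.7 in wild type and 15533 in Ezh2 KO Th1 cells, a log2 difference of 8.23, with a fold of 301 that rests on a wild type reading under the limit. Maf, a transcription factor known for driving Il4 and Il10, read 73.1 against 5309 (6.18, 72.6-fold), and both of its readings were above the limit. Tmem163, a zinc transporter gene of neurons, was at the floor in wild type and read 826 in the Ezh2 KO, at least 72.9-fold higher.

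Among the other genes with the 15 highest differences were surface proteins, cell cycle inhibitors and killer cell genes. Ifitm1, a membrane protein of antiviral defence, went from 379 to 16897 (5.48), and S100a4, a calcium-binding protein of effector and memory T cells, from 585 to 20923 (5.16). Cxcr6, a chemokine receptor of tissue-homing effector cells, read 93.9 against 3241 (5.11). These 3 genes were bright on the Ezh2 KO array and above the limit on both. Igsf5, an adhesion protein of epithelial junctions, was at the floor in wild type and at 529 in the Ezh2 KO, at least 46.7-fold higher. Klra5, a receptor of the Ly49 family of NK cells, read 12.5 against 426 (5.09). Upp1, which splits uridine, read 37.3 against 1253 (5.07), and Asb2, a substrate adaptor of a ubiquitin ligase, 55.0 against 1762 (5.00). Ttc39c was at the floor in wild type and read 369 in the Ezh2 KO, at least 32.6-fold higher. The 15 genes named were also 2-fold or more higher in the unpolarized and the Th2 pair.

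On the lower side the differences were smaller and the genes dimmer. Matk, a kinase that restrains Src family kinases, read 330 in wild type and was at the floor in Ezh2 KO Th1 cells, at least 29.1-fold lower. Its 2 probe sets differed in size, from -4.86 to -2.06, and the unpolarized and Th2 pairs gave -2.17 and -2.27. Morc1, an ATPase of the germ line that silences transposons, read 494 against 19.98 (-4.63), with -3.87 and -4.40 in the other pairs. Csn2, the milk protein beta-casein, went from 218 to the floor, at least 19.2-fold lower. Lyl1, a helix-loop-helix factor of blood progenitors, read 188 against 17.8 (-3.40), beside -1.35 and -1.22 in the other pairs. These 4 genes were lower by 2-fold or more in every pair.

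Brighter genes among the 15 lowest were Cnksr3, a scaffold of kinase signalling, at 801 against 84.3 (-3.25), Dapl1, known for its high level in naive T cells, at 1356 against 166 (-3.03), and Stxbp6, a syntaxin-binding protein, at 689 against 85.6 (-3.01). Each was lower in all 3 pairs. Cdhr3 and Lratd1 were at the floor in the Ezh2 KO, at least 12.5-fold and 12.3-fold lower. The remaining genes had wild type readings between the limit and 280 and Ezh2 KO readings under it. Fbln2, a matrix glycoprotein, read 280 against 28.2 (-3.31), while the other pairs gave -0.81 and -0.16. Apcdd1, an inhibitor of Wnt signals, read 202 against 21.9 (-3.20), with 0.77 and 0.00 in the other pairs. Vgll2, a cofactor of TEAD proteins, read 96.6 against a reading at the floor (at least 8.53-fold lower), whereas its Th2 pair gave 2.31 in the opposite direction. Ak5, an adenylate kinase, and Mapk13, a p38 kinase, were at the floor in the Ezh2 KO (at least 9.70-fold and 8.10-fold lower), and Dscam, an adhesion molecule of neurons, gave -3.07.

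The Th1 pathway starts at the receptors for IL-12 and interferon gamma. Of 13 measured genes of receptors and signalling, 3 were 2-fold or more higher and 1 lower, and the list median was 0.31 against -0.07 over all measured genes. Over all measured genes, 6.78% were higher and 3.95% lower, and the list counts below are to be read beside those shares. Il12rb1, the subunit that IL-12 shares with IL-23, read 357 in wild type and 1269 in Ezh2 KO Th1 cells (1.83). Il12rb2, the subunit that carries the IL-12 signal to STAT4, read 61.6 against 144 (1.23), the first of these under the limit. Il18r1, which binds IL-18, read 2288 against 6924 (1.60). The receptor subunits for interferon gamma differed in opposite directions, with Ifngr1 at 4396 against 8423 (0.94) and Ifngr2 at 345 against 144 (-1.26). Stat4 read 1763 against 2496 (0.50), and the kinases Jak1, Jak2 and Tyk2 differed by 0.06, -0.02 and 0.10. The second probe set of Tyk2 gave -0.53. The IL-2 receptor chains Il2rb and Il2ra and the IL-27 receptor Il27ra were also within 2-fold, at 0.06, -0.12 and 0.31.

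T-bet, the defining factor of Th1 cells, was close between the genotypes in Th1 medium. Tbx21 read 530 in wild type and 643 in Ezh2 KO Th1 cells, a log2 difference of 0.28. In the unpolarized pair it read 90.0 against 488 (2.44), and in the Th2 pair 80.8 against 336 (2.05). Wild type Tbx21 was high on the Th1 array alone, whereas the 3 Ezh2 KO arrays all lay between 336 and 643. Eomes, the related T-box factor of cytotoxic cells, read 313 against 1439 in Th1 (2.20), beside 2.73 and 2.50 in the other pairs, and was higher on each Ezh2 KO array than on any wild type array.

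Of 10 Th1 transcription factors measured, 5 were 2-fold or more higher and 0 lower (median 1.02), beside 6.78% and 3.95% of all measured genes. Besides Eomes these were Id2, an inhibitor of E proteins in effector cells, at 4599 against 19449 (2.08), Prdm1, which encodes Blimp-1, at 171 against 677 (1.99), Zeb2 at 47.6 against 121 (1.34) and Irf8 at 918 against 1950 (1.09). Bhlhe40 and Irf1 reached 0.95 and 0.70. Runx3, a partner of T-bet, read 1987 against 3145 (0.66), by the 1 of its 2 probe sets that was measured in Th1. Averaged with the probe set under the limit it gave -0.61. Runx1 was lower, at 1687 against 1042 (-0.69). Zeb2 was measured only through the Ezh2 KO array, and Hlx and Twist1 were under the limit on both Th1 arrays.

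Ifng, the signature Th1 cytokine, read 25.8 in wild type and 767 in Ezh2 KO Th1 cells, a log2 difference of 4.89 with a wild type reading under the limit. The wild type readings were 6.07, 25.8 and 4.03 in unpolarized, Th1 and Th2 medium, and those of the Ezh2 KO 266, 767 and 608. The Ezh2 KO arrays were therefore above every wild type array, and the Ezh2 KO Th1 array was the highest of the 6. These cells were harvested after 3 days without receptor stimulation. The 250 bases before the RefSeq transcription start of Ifng (chr10:118440796-118441045, plus strand, GRCm38.p6) are shown because this gene has the widest difference among the Th1 products apart from Cxcr6, with the one match to the STAT element TTCNNNGAA in capitals:

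Ifng: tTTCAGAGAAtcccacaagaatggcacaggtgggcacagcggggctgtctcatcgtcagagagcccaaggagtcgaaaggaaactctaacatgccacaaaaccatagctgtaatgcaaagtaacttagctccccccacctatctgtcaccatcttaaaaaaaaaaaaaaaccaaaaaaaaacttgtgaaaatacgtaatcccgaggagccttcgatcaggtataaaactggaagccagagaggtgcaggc

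That motif was searched on both strands in RefSeq windows of 300 bases around a start (250 before, 50 after). Counted by gene, it was present in 9.55% of all 27025 genes with a window. The share was 8.21% of the 8843 measured genes with a window and 9.64% of the 560 higher genes with one. The match is a description of letters and does not mark a binding site.

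Among the products and homing receptors of Th1 cells, 7 of 10 measured genes were 2-fold or more higher and 0 lower (median 2.35). Over all measured genes the shares were 6.78% and 3.95%. Ifng, Ccl3 and Havcr2 were measured only through the Ezh2 KO array, so the count and median are partly set by the filter. The list had 2 more genes, Il2 and Xcl1, under the limit on both arrays. Il2 read 61.0 in wild type and was at the floor in the Ezh2 KO (-2.43), beside -2.19 and -2.02 in the unpolarized and Th2 pairs. Xcl1 gave -0.09, beside 2.50 and 2.47. Ccl5, a chemokine that draws T cells and monocytes, read 524 against 5712 in Th1 (3.45), with 4.76 and 4.15 in the other pairs. Havcr2, which encodes the inhibitory receptor TIM-3, read 19.2 against 217 (3.50), and Ccl3 33.1 against 236 (2.83). Fasl, the death ligand, read 831 against 3045 (1.87), and Ccl4 114 against 279 (1.29). Cxcr3, the receptor that guides Th1 cells to inflamed tissue, was closer, at 1313 against 2382 (0.86). Tnf at 0.19 and Lta at -0.21 were also near equality, and their signs were not the same in the 3 pairs.

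**Figure D2:**
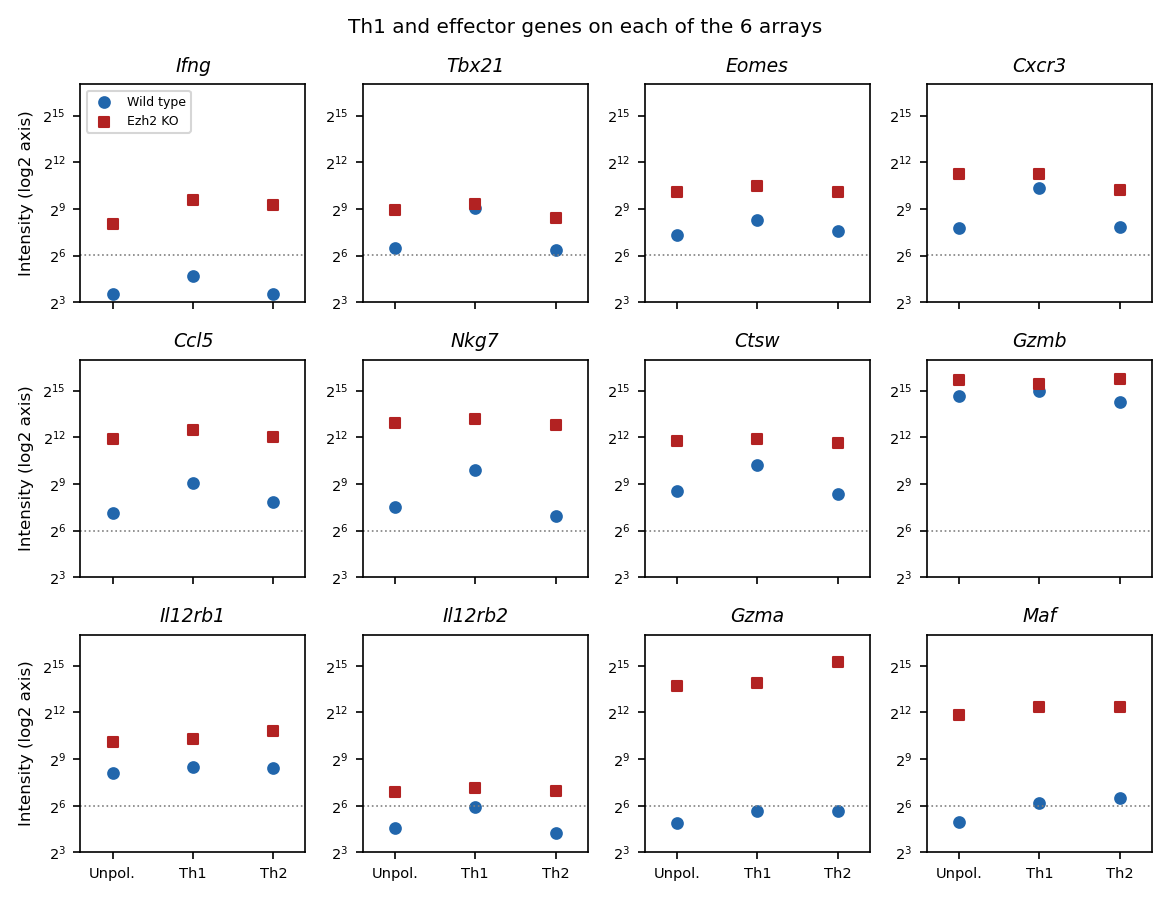
Intensity of 12 Th1 and effector genes (log2 axis, values under 11.33 drawn at that floor) on the wild type (blue circles) and Ezh2 KO (red squares) array of each culture; the dotted line is 64.43. Tbx21, Cxcr3, Nkg7 and Ctsw have 1 high wild type array, in Th1. The Ezh2 KO arrays are close to one another for Nkg7 and Ctsw, but run from 336 to 643 for Tbx21 and from 1215 to 2382 for Cxcr3. For Gzma, Maf and Ifng the genotypes are far apart in every culture.

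Cytotoxic granule genes were higher in most members. Of 15 measured genes of granzymes, perforin and granule proteins, 12 were 2-fold or more higher, 0 were lower and the median was 1.90. Over all measured genes the shares were 6.78% and 3.95%. Gzma, Gzmd, Gzme, Gzmf, Gzmg and Gzmm were measured only through the Ezh2 KO array. Besides Gzma, the clustered granzymes Gzmd, Gzmg, Gzme and Gzmf were higher, Gzmd at least 38.6-fold (wild type at the floor, Ezh2 KO 438) and the others by 4.44, 3.74 and 2.23. Their sequences are near copies of one another, and cross-hybridization between them was not tested. Gzmc read 818 against 2786 (1.77), and Gzmm 42.6 against 88.3 (1.05). Gzmb, a main killing protease of activated T cells, was already at 32780 in wild type and read 43232 in the Ezh2 KO (0.40).

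Perforin, which opens the target membrane for granzymes, was higher by 2.86 by its brighter probe set (78.2 against 566) and lower by the second (-0.70), so its direction rests on 1 probe set. Nkg7, a granule membrane protein needed for degranulation, read 944 against 9208 in Th1 (3.29), and the other pairs gave 5.41 and 5.85. Ctsw, a cathepsin of cytotoxic cells, read 1204 against 3735 (1.63), with 3.24 and 3.29 in the other pairs. For both genes the Ezh2 KO arrays were close to one another, from 7204 to 9208 for Nkg7 and from 3233 to 3735 for Ctsw, and the wild type Th1 array was the highest wild type array. Serpinb9, which protects killer cells from their own granzyme B, read 816 against 3035 (1.90). Nkg7 carries the T-box element AGGTGTGA 14 bases before its RefSeq start, and so does Plac8, a small cysteine-rich protein, 249 bases before. Nkg7 and Plac8 are bright and differed less in Th1 than in the other pairs, as did other genes such as Usp18, Cxcr3, Tbx21 and Ctsw. How many genes with such differences carry the element was not counted, so those shown are examples only. The 250 upstream bases of Nkg7 and Plac8 (chr7:43436888-43437137, plus strand, and chr5:100572206-100572455, minus strand, GRCm38.p6) are given with the element in capitals:

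Nkg7: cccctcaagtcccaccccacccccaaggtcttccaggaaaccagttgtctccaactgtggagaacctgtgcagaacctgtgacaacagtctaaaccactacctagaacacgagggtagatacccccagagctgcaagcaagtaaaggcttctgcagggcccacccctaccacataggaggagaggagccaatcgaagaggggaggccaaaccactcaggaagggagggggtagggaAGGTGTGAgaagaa

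Plac8: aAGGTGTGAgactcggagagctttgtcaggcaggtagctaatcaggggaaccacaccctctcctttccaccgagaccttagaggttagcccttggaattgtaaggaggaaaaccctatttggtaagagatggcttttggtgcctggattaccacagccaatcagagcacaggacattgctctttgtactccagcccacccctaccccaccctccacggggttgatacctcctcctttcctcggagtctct

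The element was found in 1.48% of all genes with a window, in 1.21% of measured genes with a window, in 15 of 560 higher genes (2.68%) and in 3 of 350 lower genes (0.857%). Plac8 read 7453 against 22998 in Th1 (1.63), and 3.51 and 4.69 were its differences in the other pairs. It was named after its values were seen.

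Receptors typical of NK cells were also higher, in 6 of 8 measured genes, with 0 lower and a median of 2.45. Over all measured genes, 6.78% were higher and 3.95% lower. Klrc1, Cd160, Cd244a and Fcer1g were measured only through the Ezh2 KO array, so the count and median are partly set by the filter. The 4 members under the limit on both arrays, Klrc2, Klrg1, Ncr1 and Tyrobp, gave -1.02, -0.12, -1.68 and -0.70. Klrd1, which encodes CD94, read 142 against 3702 (4.71), and its partner Klrc1, encoding NKG2A, 27.7 against 403 (3.86). Klrk1, encoding the activating receptor NKG2D, read 106 against 294 (1.47). Cd160 and Cd244a went from under the limit to 704 and 170 (3.98 and 3.41). Fcer1g, a signalling adaptor, read 30.4 against 86.0 (2.83-fold), while the adaptor Hcst differed by 0.11. The NK cell markers Ncr1 and Tyrobp and the others of that marker list stayed under the limit on both arrays, 0 of 4 measured, with summed intensities of 91.7 in wild type and 77.8 in Ezh2 KO. Whether NK cells had a part in the higher NK receptors was not tested.

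Inhibitory receptors split, with 5 of 8 measured genes higher and 1 lower, beside 6.78% and 3.95% of all measured genes. Havcr2, Cd160 and Cd244a, given above, were measured only through the Ezh2 KO array, so the count is partly set by the filter. The other higher genes were Cd200r1 at 74.1 against 573 (2.95) and the ectonucleotidase Entpd1 at 178 against 582 (1.71). Ctla4, which competes with CD28 for its ligands, was lower, at 5385 against 2663 (-1.02), and Btla gave -0.41. Pdcd1, which encodes PD-1, gave 0.36 from readings of 172 and 220.

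Cytokines of the Th2 fate were higher in Th1 medium, although IL-4 was neutralized there. All 5 measured Th2 cytokine genes passed 2-fold in the higher direction, with a median of 3.31, beside 6.78% of all measured genes. Il4, Il13, Il10 and Il24 were under 64.43 in wild type and were measured only through the Ezh2 KO array. The count and median are therefore partly set by the filter, and 3 more genes of the list were under it on both arrays. Csf2, encoding GM-CSF, read 93.9 against 1164 (3.63), and Il10, an anti-inflammatory cytokine made by several T helper types, 34.7 against 361 (3.38). Il4 read 20.5 in wild type and 204 in Ezh2 KO Th1 cells (3.31), and Il24 55.3 against 405 (2.87). Il13 was only just measured, at 23.1 against 69.0 (1.58), and Il5 at 18.7 against 27.8 was under the limit on both arrays. For the Th2 pair, the Ezh2 KO reading of Il13 was 555 and that of Il5 842, far above those in Th1 medium.

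Of 9 measured Th2 factors and receptors, 3 were 2-fold or more higher and 0 lower (median 0.31), beside 6.78% and 3.95% of all measured genes. They were Maf, Pparg, a nuclear receptor of fat cells and Th2 cells, at 24.2 against 413 (4.09), and Il17rb, a receptor for IL-25, at 17.4 against 80.6 (2.21). Il17rb gave -0.59 and -0.35 in the other pairs. Pparg and Il17rb were measured only through the Ezh2 KO array, and 3 more genes of the list were under the limit on both arrays. The count is therefore partly set by the filter. Gata3, the master factor of Th2 cells, read 475 against 686 (0.53), beside 0.75 and 1.24. Among Th17 genes, 2 of 4 measured were higher, beside 6.78% of all measured genes. These were Ahr, a ligand-activated factor, at 33.3 against 916 (4.78) and Rora at 222 against 498 (1.16). Batf gave 0.84 and Ccr6 0.58. Ahr and Ccr6 were also measured only through the Ezh2 KO array, and 3 more Th17 genes were under the limit on both arrays.

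Genes of other T cell states were lower or within 2-fold, where 6.78% of all measured genes were higher and 3.95% lower. Among regulatory T cell genes, 0 of 7 were higher and 3 lower, Gpr83 at 291 against 108 (-1.43), Ikzf2, which encodes Helios, at 1067 against 486 (-1.14), and Ctla4. Cd200, at 310 against 114 (-1.45), was the 1 lower gene of 8 follicular helper genes, of which 0 were higher. Of 14 naive and memory genes, 0 were higher and 4 lower. These were Dapl1, Ccr7, the receptor for lymph node homing, at 3278 against 1504 (-1.12), and both chains of the IL-6 receptor, Il6ra at 198 against 95.7 (-1.05) and Il6st at 351 against 172 (-1.03). Il7r, Foxo1, Satb1 and Lef1 gave 0.79, 0.76, 0.60 and 0.01, so that the list was not lower as a whole (median -0.32).

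Inhibitors of cyclin-dependent kinases included 2 of the widest differences on the array. Cdkn2a, which encodes p16 and p19 and is a classical Polycomb target, read 18.5 in wild type and 904 in Ezh2 KO Th1 cells (5.61). Its neighbour Cdkn2b was at the floor in wild type and read 459, at least 40.5-fold higher. Cdkn1a, encoding p21, read 2321 against 6293 (1.44), while Cdkn1b, encoding p27, read 2993 against 1737 (-0.78). Cdkn2c and Cdkn2d gave 0.44 and 0.22. Among 29 mitosis and DNA replication genes, 0 passed 2-fold in either direction, but 27 were below 0, where 56.7% of all measured genes lay, with a median of -0.27 against -0.07. The most negative were Plk1 (-0.74), Bub1 (-0.72), Bub1b (-0.64) and Aurkb (-0.62), kinases of mitosis. Of the 3 measured probe sets of Bub1b, 1 was higher, by 1.52. Of 13 apoptosis and p53 genes, 2 were higher and 0 lower, beside 6.78% and 3.95% of all measured genes. The 2 were Pmaip1 (NOXA) at 606 against 2194 (1.86) and Bcl2l11 (BIM) at 1263 against 3589 (1.51).

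Other Polycomb genes were mostly within 2-fold, as were 89.3% of all measured genes. Among 11 PRC2 subunit genes 0 passed 2-fold, from Jarid2 at 0.80 to Mtf2 at -0.63, and Ezh1, the paralog of Ezh2, gave 0.06 (726 against 756). Of 16 PRC1 and H3K27 demethylase genes, 1 was higher and 0 were lower, close to the shares of all measured genes (6.78% and 3.95%). The higher gene was Bmi1, a PRC1 subunit known for repressing Cdkn2a, at 1269 against 5218 (2.04). Kdm6b, an H3K27 demethylase, gave -0.90. Cbx7, a reader of the H3K27 mark, gave -0.72 by its brightest probe set, but its 3 measured probe sets ran up to 2.65 and 1 of them was lower. Developmental transcription factors, the classical PRC2 targets outside the blood, were mostly under the limit. Of those with a named probe set, 10 of 50 were measured, of which 2 were higher (Lhx2 1.62, Lmo2 1.47) and 3 lower (Hoxa9 -2.04, Gata2 -1.20, Pax9 -1.18; Gata2 gave 0.15 with its probe sets averaged), and 177 was the highest reading among them on a Th1 array.

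Sterol synthesis genes were read lower in 16 of 16 measured members (56.7% of all measured genes were below 0), with a median of -0.90. By 2-fold or more, 6 of them were lower, beside 3.95% of all measured genes. The 6 were Lss at 3237 against 1104 (-1.55), Mvd at 1541 against 531 (-1.54), Msmo1 at 7061 against 2875 (-1.30), Dhcr7 (-1.23), Nsdhl (-1.22) and Pmvk (-1.13), enzymes spread along the route from mevalonate to cholesterol. Insig1, a sensor that holds the pathway in check, gave -0.41. Glycolysis genes were also below 0 in 13 of 13, beside the same 56.7%, but 0 passed 2-fold and the median was -0.28, with Pfkl at -0.75 and Pdk1 at -0.51 the most negative. Of the 3 measured probe sets of Pfkl, 1 was higher, by 0.66. Of 11 STAT and feedback genes 0 passed 2-fold, and 89.3% of all measured genes lay within it. Immediate early genes split, with Fosl2 (2.20), Ier3 (1.51) and Jun (1.07) higher and Nr4a3 (-1.56) and Nr4a2 (-1.38) lower of 18 measured. The shares of all measured genes were 6.78% and 3.95%. Atf3 (1.90) was the 1 higher gene of 13 endoplasmic reticulum stress genes, beside 6.78% of all measured genes.

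**Figure D3:**
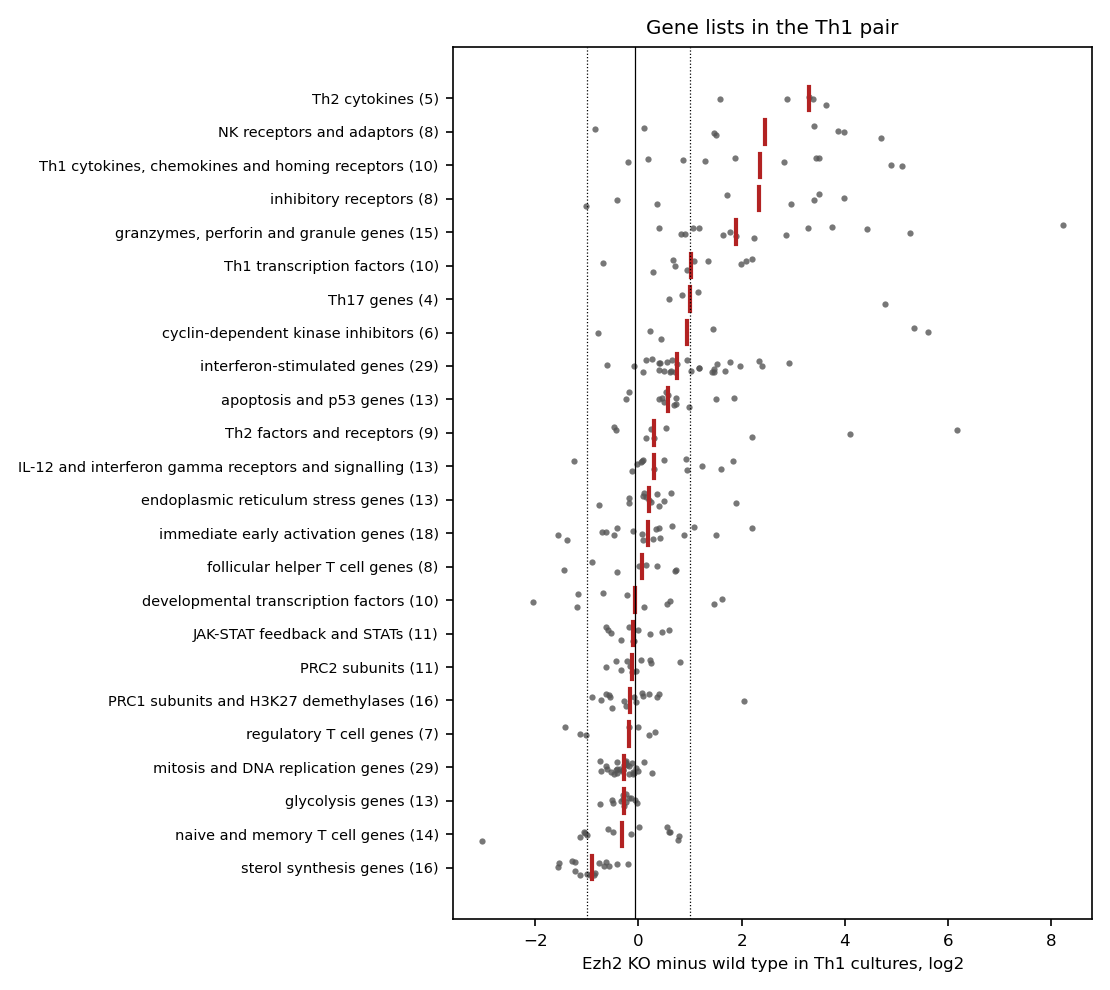
Each grey point is a measured gene of a list (number measured in brackets), placed by its log2 difference between the Ezh2 KO and wild type Th1 arrays; red bars are list medians, the solid line is the median of all measured genes (-0.07) and the dotted lines mark 2-fold. Th2 cytokines (median 3.31), NK receptors (2.45) and Th1 products (2.35) lie highest and sterol synthesis genes (-0.90) lowest. A gene under 64.43 in wild type is drawn only where its Ezh2 KO array reached that limit, which raises the medians of dim lists.

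Interferon-stimulated genes, which encode antiviral proteins, were mostly higher in Ezh2 KO Th1 cells. Of 29 measured genes, 13 were 2-fold or more higher and 0 lower in the Th1 pair, beside 6.78% and 3.95% of all measured genes. Above 0 were 27 of the 29, beside 43.3% of all measured genes. The list median was 0.75 in Th1, 1.63 in the unpolarized and 2.61 in the Th2 pair, but no member passed the test of Th1 against the other pairs (limma adjusted p at least 0.962, 7 of 29 with an unadjusted p under 0.05). Rsad2, the antiviral enzyme viperin, read 580 in wild type and 2944 in Ezh2 KO Th1 cells (2.34), and 3.48 and 4.56 were its differences in the other pairs. Mx1, an antiviral GTPase, read 575 against 2246 (1.97, beside 3.29 and 4.43). Usp18, which removes the modifier ISG15 and damps interferon signalling, read 2468 against 4993 (1.02, beside 3.01 and 3.49). Ifit1, which recognizes viral RNA ends, read 202 against 1060 (2.395, beside 2.95 and 3.91).

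The Th1 difference was the smallest of the 3 for 26 of 29 genes, against 3856 of all 10849 measured genes (35.5%). The wild type Th1 array was the highest wild type array for 28 of 29, against 3822 of all measured genes (35.2%). Both statements share that array, and a high wild type reading makes a Th1 difference small by arithmetic. Across the 3 wild type arrays the median range of these genes was 1.35 on the log2 scale, and across the 3 Ezh2 KO arrays 0.29. Over all measured genes those ranges were 0.27 and 0.28. A limma fit of genotype over the 3 cultures called 12 of the 29 higher and 0 lower at an adjusted p under 0.05, beside 8.35% higher and 7.98% lower of all 11572 genes, and lost these calls without any one pair. Usp18 read 686, 2468 and 409 in wild type unpolarized, Th1 and Th2 cells, and 5548, 4993 and 4613 in the Ezh2 KO. The wild type Th1 array, from the medium without interferon gamma blockade, was thus the highest wild type array for this gene, and the Ezh2 KO arrays were close together. With 1 array per group, the culture and that single array cannot be told apart.

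Sequences upstream of 3 of these genes are shown because these genes were higher together and carry the interferon response element, GAAA repeated after any 2 letters, here in capitals as its reverse complement. They are the 250 bases before the RefSeq start (GRCm38.p6) of Ifit1 (chr19:34640639-34640888, plus strand), Ifit3 (chr19:34583279-34583528, plus strand) and Rsad2 (chr12:26456453-26456702, minus strand). Ifit1 and Ifit3 hold the element 2 times each and Rsad2 1 time:

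Ifit1: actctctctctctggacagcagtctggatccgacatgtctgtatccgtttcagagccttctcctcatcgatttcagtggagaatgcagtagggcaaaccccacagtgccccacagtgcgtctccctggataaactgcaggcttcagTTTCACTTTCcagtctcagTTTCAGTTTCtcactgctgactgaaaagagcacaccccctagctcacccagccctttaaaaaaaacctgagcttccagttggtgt

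Ifit3: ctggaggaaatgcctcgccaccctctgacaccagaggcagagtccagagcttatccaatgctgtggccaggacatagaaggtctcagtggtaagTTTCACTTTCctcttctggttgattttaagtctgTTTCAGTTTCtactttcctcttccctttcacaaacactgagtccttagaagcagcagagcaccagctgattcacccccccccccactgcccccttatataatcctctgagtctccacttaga

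Rsad2: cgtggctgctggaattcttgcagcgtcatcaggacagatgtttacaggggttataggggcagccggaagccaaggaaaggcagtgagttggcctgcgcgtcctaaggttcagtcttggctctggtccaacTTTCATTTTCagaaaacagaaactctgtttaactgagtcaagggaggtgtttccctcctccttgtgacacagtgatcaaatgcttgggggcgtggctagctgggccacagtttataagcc

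Of the 22 measured interferon-stimulated genes with a RefSeq window, 15 held the element (68.2%), as did 8 of the 10 that were 2-fold or more higher (80.0%). It was found in 3.99% of all genes with a window, 3.78% of measured genes with a window, 35 of 560 higher genes (6.25%) and 10 of 350 lower genes (2.86%). The median number of CG pairs in the 300 bases was 16 for higher, 19 for lower and 22 for all measured genes.

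**Figure D4:**
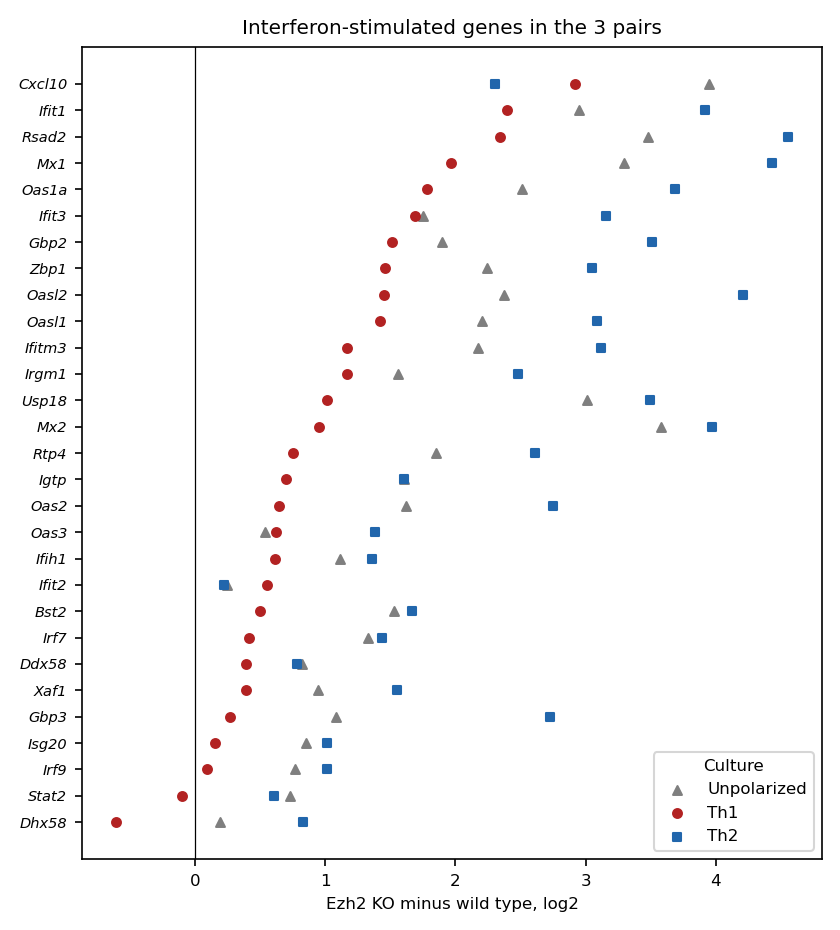
Log2 difference between Ezh2 KO and wild type for the 29 measured interferon-stimulated genes in the unpolarized (grey triangles), Th1 (red circles) and Th2 (blue squares) pair, ordered by the Th1 value. The Th1 value is the lowest of the 3 for 26 of 29 genes, with list medians of 0.75 in Th1, 1.63 in unpolarized and 2.61 in Th2 cultures.

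Markers of cells that could have remained in the cultures were read beside these lists, and their part in the differences was not tested. Erythroid markers were measured in 0 of 6 genes, with sums of 112 and 146, and NK markers in 0 of 4. Both CD8 markers were within 2-fold (Cd8a 152 against 90.9, by the 1 lower of its 3 measured probe sets, and Cd8b1 263 against 339). Of 5 measured B cell markers, Ms4a1 at 30.3 against 189 (2.64) and Blk at 20.4 against 67.5 (1.73) were higher, while the list's sum was 7437 against 4576, most of it Ighm (7221 against 4094). Of 8 measured myeloid and dendritic markers, 3 were higher, Mpeg1 (at least 12.4-fold, at the floor in wild type), H2-Aa at 117 against 1360 (3.54) and Cd74 at 87.2 against 268 (1.62), with list sums of 4472 and 6146. Mast cell and basophil markers had Kit (1.98) and Cpa3 (1.27) higher and Gata2 (-1.20, or 0.15 with its probe sets averaged) lower of 3 measured, with sums of 232 and 333. Both measured gamma delta T cell markers, Cd163l1 at 37.6 against 152 (2.02) and Blk, were higher, with sums of 86.1 and 250.9. Ms4a1, Blk, Mpeg1, Kit, Cpa3 and Cd163l1 were measured only through the Ezh2 KO array, so the counts of higher markers are partly set by the filter. Blk, just over the limit in the Ezh2 KO, gave -0.02 and 0.49 in the unpolarized and Th2 pairs.

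To see whether the Th1 differences were also present in cells that shared no array with the Th1 pair, the unpolarized and Th2 pairs were read for the same genes. Of the 736 higher genes, 425 (57.7%) were 2-fold or more higher in both other pairs, 160 in 1 of them and 151 in neither. Among genes within 2-fold in Th1, both other pairs were 2-fold higher in 135 of 9684 (1.39%). Of the 429 lower genes, 122 (28.4%) were 2-fold or more lower in both other pairs, 133 in 1 and 174 in neither, beside 71 of 9684 (0.733%). Both other differences had the same sign as in Th1 for 606 of the higher and 325 of the lower genes. In their own right, the unpolarized pair had 758 higher and 561 lower genes of 10853 (6.98% and 5.17%), and the Th2 pair 1016 and 597 of 10877 (9.34% and 5.49%).

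Recurrence went with brightness. The brighter Th1 reading had a median of 536 for higher genes that recurred in both other pairs and 102 for those that recurred in neither, and of 336 and 134 for lower genes. Among the 6539 genes at 500 or more on a Th1 array, 278 were 2-fold higher (4.25%) and 100 lower (1.53%). Of these, 217 (78.1%) and 43 (43%) recurred in both other pairs. Pearson's r across genes between the Th1 and unpolarized differences was 0.69 over all 10849 genes, 0.86 over the 8538 at 200 or more and 0.89 over those at 500 or more. Between Th1 and Th2 it was 0.72, 0.87 and 0.90. Genes are not independent replicates, and these correlations are descriptions of the arrays.

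The genotype effect over all 3 pairs, fitted with limma with culture as a block, was called for 966 higher genes (8.35%) and 924 lower genes (7.98%) of 11572 at an adjusted p under 0.05. Under median centring of the arrays the counts were 863 higher and 411 lower. It called 473 of the 736 higher and 204 of the 429 lower Th1 genes. Gzma, Maf, Cdkn2b, Csf2, Ahr, Bmi1, Klrd1, Ifitm1 and S100a4 rose and Morc1, Csn2, Dapl1, Ccr7, Lss and Mvd fell by that test, with limma adjusted p from 0.0143 (Gzma) to 0.0266 (Ccr7). Tbx21, Cxcr3, Gzmb, Matk and Plac8 did not pass (limma adjusted p 0.108, 0.0766, 0.0738, 0.0587 and 0.0547). The fit includes the Th1 pair and rests on 2 residual degrees of freedom. Without any one of the 3 pairs it called 0 genes, and without the Th1 pair limma gave 3216 genes an unadjusted p under 0.05 with a smallest adjusted p of 0.0803.

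Whether a difference belonged to Th1 was tested as the Th1 difference less the mean of the other pairs, with limma on 1 residual degree of freedom. No gene passed (0% called), the smallest adjusted p was 0.962, and 579 of 11572 had an unadjusted p under 0.05 (5%), 299 with a higher (2.58%) and 280 with a lower (2.42%) Th1 difference. No gene below is therefore shown to differ between cultures in its response. Of the 6539 genes at 500 or more, 12 had a Th1 difference higher than the others' mean by 1 or more and 54 lower by 1 or more. The lower ones with the widest gaps were Plac8 (-2.47), Nkg7 (-2.34), Usp18 (-2.24), Cxcr3 (-2.07) and Tbx21 (-1.97), with limma unadjusted p of 0.0377, 0.00649, 0.00826, 0.0424 and 0.0084 and adjusted p of at least 0.962. Ctsw (-1.63) had an unadjusted limma p of 0.00555. The Th1 difference was also the smallest of the 3 for 10 of 15 granule genes and 7 of 10 Th1 transcription factors, beside 35.5% of all measured genes. Against each other pair alone Plac8, Nkg7, Usp18, Cxcr3, Tbx21 and Ctsw gave gaps of the same sign, from -1.56 to -3.06. These gaps reuse the Th1 difference and make up the mean gap by which the genes were picked. Their shared sign is therefore not separate evidence.

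Egr1, a growth-response factor, Dapk2, a death-associated kinase, and the interferon-inducible GTPases Gbp6 and Iigp1, named after their values were seen, had the same arrangement of 1 high wild type array. Egr1 read 670, 3215 and 666 in wild type unpolarized, Th1 and Th2 cells against 2245, 5040 and 3277 in the Ezh2 KO. Myb, a progenitor factor, read 1566 and 1614 in the Th1 pair (0.04) but was higher by 1.11 and 1.79 in the other pairs. On the opposite side, Cdkn2a gave 5.61 in Th1 and 3.71 and 4.27 in the unpolarized and Th2 pairs, but its 3 wild type readings (18.5, 27.6 and 48.3) were under the limit and its Ezh2 KO readings in Th1 and Th2 were 904 and 934. Klf3, a repressor of the Krüppel family, read 665 against 2248 (1.76) beside 0.70 and 0.65. The 6 measured probe sets of Klf3 ran from 0.015 to 1.85 in Th1. Pdlim4, a cytoskeletal adaptor, was 0.86 higher in Th1 and lower by -0.58 and -0.51 elsewhere. Sp4 gave 1.80 beside 0.67 and 1.11.

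**Figure D5:**
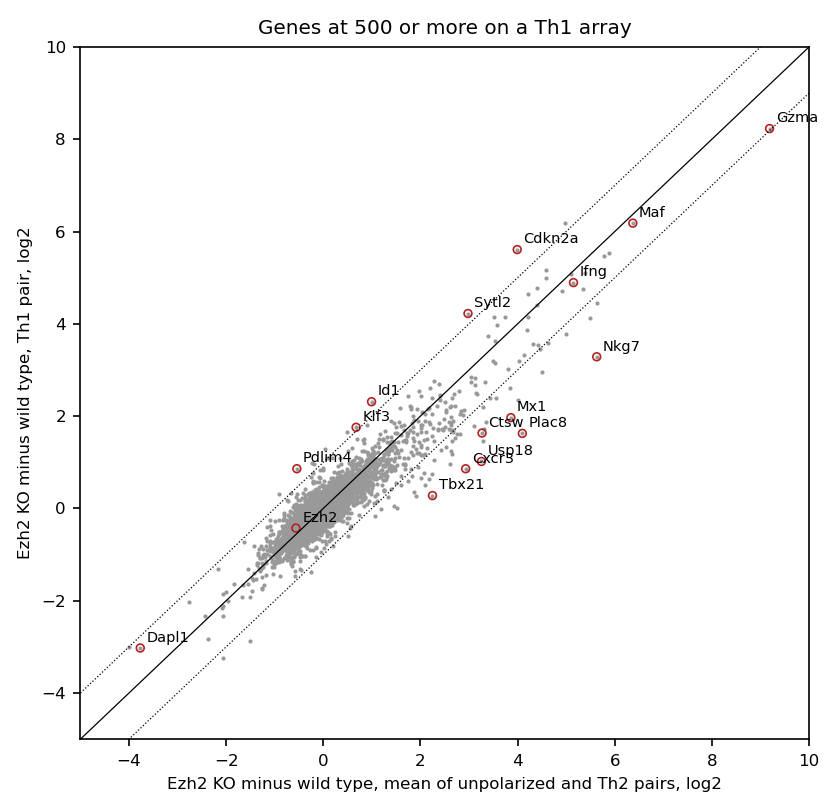
Each point is 1 of the 6539 genes at 500 or more on a Th1 array, with its mean log2 difference in the unpolarized and Th2 pairs on the horizontal axis and its Th1 difference on the vertical axis (solid line, equality; dotted lines, 1 log2 unit from it). Most genes follow the line, 54 lie 1 or more below it (Plac8, Nkg7, Usp18, Cxcr3, Tbx21) and 12 lie 1 or more above it (Cdkn2a, Pdlim4, Klf3).

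The 20 genes with the widest gaps among those past 2-fold in Th1 were nearly all dim. Their brighter Th1 reading lay between 66.5 and 280, and under 200 in 16 of 20. Tuba8, a tubulin, was higher in all 3 pairs, at 80.4 against 263 in Th1 (1.71) and by 4.56 and 4.92 in the other pairs. Others such as Nacc2 (3.51 in Th1, -0.46 and -0.24 elsewhere) and Ccdc14 (-2.83, -0.29 and 0.22) were past 2-fold in Th1 and within it elsewhere. Of the 4 measured probe sets of Nacc2, 2 were higher in Th1 and the range was -1.49 to 3.51, so the value given is the highest. Hrct1 gave 3.16 in Th1 beside -0.14 and -1.62. With 1 array per group, a deviation of 1 array cannot be told apart from a difference in culture.

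At the 2-fold limit itself, Chpt1 (2.0006-fold higher), Slc30a4 (2.0015-fold higher) and Ccdc173 (2.0008-fold lower) lay just inside, and Galnt2 (1.9988-fold higher), Fdft1 (1.9999-fold lower) and Cd27 (1.997-fold lower) just outside. Where a gene had 2 or more measured probe sets, these had the same sign in 3186 of 5221 genes (61%), and in 305 of the 331 genes past 2-fold (92.1%). Maf was higher by each of its 5 probe sets and Cxcr6 by both of its probe sets.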

How the data were processed

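Each of the 6 cultures gave 1 biotin-labelled RNA sample on 1 Affymetrix 3' array, per the labels' protocols. The authors' deposited values are linear intensities, 1 for each of 45101 probe sets, and the submitters' processing notes name Affymetrix Expression Console without a version. Neither labels nor file headers state how probes were summarized. All arrays share a trimmed mean of 500.003, with 2% removed at each end, but not one distribution, so they had been scaled to a target and not quantile normalized. Arrays carry no read depth; their number and the signal over background limit precision.

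Beside 64 controls, 34945 probe sets had a single gene symbol, 932 had several and 9160 had none, and 34741 of the named ones were found in the RefSeq table of GRCm38.p6. From these, values were raised to the 20th percentile (11.33, log2 3.50), taken to log2, and the probe set with the highest mean represented each of 18193 genes. Genes were counted in the Th1 pair where an array reached the median of all values (64.43), and by a 2-fold limit without a test. With limma 3.58.1 in R 4.3.3 and Benjamini-Hochberg adjustment, an additive fit of culture (block) and genotype (2 residual degrees of freedom, prior 1.66) and a contrast of the Th1 difference with the mean of the others (1 residual degree, prior 1.72) were run over 11572 genes that reached the limit on any array. Whether cultures came from separate mice is not in the labels, so p-values measure the spread between these pairs, which may be technical. A fold is a lower bound where the lower reading was at the floor. The additive fit and the contrast were tested on simulated data built from the floored and filtered values, and the steps before them were not.

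Genes named are Ezh2, members of the lists of receptors, Th1 factors and products, Th2 cytokines, granule genes, NK receptors and kinase inhibitors, the 15 highest and 15 lowest Th1 differences, up to 4 members of each other list with the largest differences, and the 10 highest and 10 lowest contrasts among genes past 2-fold. Predicted genes and receptor segments were left out. In addition, Entpd1, Btla, Pdcd1, Il7r, Foxo1, Satb1, Lef1, Insig1, Nsdhl, Pmvk, Jun, Ezh1, Pax9 and 10 genes described with the contrasts (Plac8, Usp18, Gbp6, Iigp1, Pdlim4, Klf3, Sp4, Dapk2, Egr1 and Myb) were named after their values were seen. The comparison and its 32 gene lists were chosen with earlier results of these data known. Upstream windows (300 bases, RefSeq, GRCm38.p6) matched 8843 of 10849 genes by symbol. Where a gene had several windows, a motif counted if any held it and the window with most matches was used. Alternatives were median centring, quantile normalization, other floors, filters and fold limits, probe set means, and leaving out a pair.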

Additional observations from a re-analysis of the deposited data

Results flagged for a closer look

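Among the named genes, 5 differed by 2-fold or more in one direction in Th1 and in the opposite direction in both other pairs. All 5 were named for the size of their Th1 contrast, so the p-values of that contrast given below are not separate evidence. Gapdhs, the sperm form of glyceraldehyde phosphate dehydrogenase, gave 3.09 in Th1 against -3.53 and -1.43 in the unpolarized and Th2 pairs. Ifna1, a type I interferon gene, gave 2.27 against -1.64 and -1.70, Rap1gap 1.82 against -2.77 and -1.33, and Trpc7, a cation channel gene, 2.62 against -1.16 and -1.29. Sh3pxd2b, an adaptor of podosomes, ran the other way, with -1.92 against 2.53 and 1.59. Their brighter Th1 readings were 122, 66.5, 95.6, 69.5 and 81.3, and in each the dimmer reading was under 64.43. In the limma contrast of Th1 with the other pairs their unadjusted p ran from 0.000526 (Ifna1) to 0.0199 (Rap1gap), and their adjusted p were at least 0.962.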

How the results depend on the processing

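The counts past 2-fold (736 higher, 429 lower) became 1640 and 1309 with no filter on low values, 392 and 143 at a 3-fold limit, 1376 and 1319 at 1.5-fold, and 278 and 100 among genes at 500 or more, a choice made after seeing the data. A filter at the 60th percentile left 263 lower genes. The limma genotype counts (966 higher, 924 lower) became 411 lower with median centring, 1678 lower with the 60th percentile filter and 1685 lower among genes at 500 or more. They were 0 higher and 0 lower with no filter, and 0 and 0 without the unpolarized, the Th2 or the Th1 pair, where unadjusted p under 0.05 stood at 1489 and 1738, 1386 and 1566, and 1512 and 1704 genes. The contrast of Th1 with the other pairs called 0 genes under every setting run. Its test on 1 residual degree of freedom is too weak for this to say anything of stability. Averaging probe sets turned the sign of 9 named Th1 differences, 1 of them past 2-fold, Gata2, at 0.15. The others were Bcl6, Bub1b, Cbx7, Il2ra, Il2rb, Myb, Runx3 and Tyk2, and no other setting turned a named sign. Of 210 named genes, 1 moved by more than its spread over the 3 pairs under median centring, 1 under quantile normalization, 10 with no floor, 27 with a floor at the 40th percentile and 33 with probe set means. The median Th1 difference was -0.07 as deposited, -0.10 with median centring and -0.06 after quantile normalization, and 63.2%, 60.5% and 62.6% of genes past 2-fold were higher. The labels give no replicate numbers, so the genotypes were paired by culture alone, as the block of the fit. The causes of these shifts were not tested. Signal over background limits the 342 higher and 207 lower genes whose dimmer reading was under 64.43.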
